A study of Mus musculus with 26 samples.

Results

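The last interval of an in vitro germ cell induction was compared here: primordial germ cell-like cells (PGCLCs) at day 6 against the same lines at day 4. The 6 libraries are 1 empty-vector control line and 2 clones that overexpress Tex10, each at both days, out of 26 samples in the series. They were chosen by their labels, as the only day 6 libraries of the series and their day 4 counterparts. The 6 libraries of the same 3 lines as epiblast-like cells (EpiLCs) and at day 2 give the earlier course. All are mouse cells of the 129Sv/J strain, untreated, with PGCLCs derived from EpiLCs. The overexpressing lines are single clones, the control is 1 line, and the promoter that drives the vector is not given in the sources used here. Values written as a row of 3 are always empty vector, clone 1 and clone 2 in that order. Their unit is CPM on a library size scaled by the trimmed mean of M values (TMM-scaled CPM). A fold change is the day 6 minus day 4 difference of log2(TMM-scaled CPM + 1), with its standard error from a fit of all 12 libraries of the 3 lines, those of EpiLCs and day 2 included. That scale understates the changes of genes at low values.

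Primordial germ cells are the embryonic founders of sperm and eggs. In mouse culture, EpiLCs are driven by bone morphogenetic protein and supporting cytokines into PGCLCs, which switch on the germ cell regulators Prdm1, Prdm14 and Tfap2c, regain naive pluripotency genes and lose the formative epiblast programme. After specification, germ cells in the embryo erase DNA methylation. Germline genes such as Dazl and the meiosis genes are held silent in somatic cells by DNA methylation and by the repressor complex PRC1.6, and become active later. Tex10 is a component of a complex for ribosome biogenesis that also occupies enhancers in embryonic stem cells.

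The 6 libraries held between 5227287 and 6715575 reads in the table, and 1 read was worth between 0.146 and 0.187 TMM-scaled CPM. No pair agreed within counting noise, since the chi-square per gene was 2.46 or more. Libraries of 1 day correlated at between 0.979 and 0.988 in their log2 values, taken across genes that are no independent replicates. Pairs from different days correlated at between 0.972 and 0.981, so the ranges overlap. The labels do not state that the lines were grown or sequenced on separate occasions, so p-values measure the spread between these libraries only. Tex10, which checks the clone labels, was at 147, 481 and 493 at day 4 and 145, 654 and 651 at day 6. It was higher in both clones than in the empty vector at each day. Its change between the days was not called (0.27 ± 0.14, adjusted p = 0.29), and it overlaps Invs on the opposite strand.

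The label of the cells was checked against 6 markers of PGCLCs. Prdm14, a regulator of germ cell specification, was at 42.8, 45.8 and 43.5 at day 4 and 46.5, 43.8 and 44.7 at day 6, against 4.06, 2.24 and 1.79 in EpiLCs. Tfap2c, another such regulator, was at 132, 76.5 and 74.7 at day 4 and 80.6, 64.6 and 68.6 at day 6, against 0.751, 2.54 and 2.20 in EpiLCs. Prdm1, a repressor of somatic genes in germ cell precursors, was at 28.8, 25.7 and 27.6 at day 4 and 26.5, 22.9 and 23.6 at day 6, against 16.98, 16.1 and 11.7 in EpiLCs. All 3 stood above their EpiLC values in every library of both days. Nanos3, an RNA-binding protein that protects migrating germ cells, was low, between 2.11 and 5.97 over the 6 libraries. Dppa3 (Stella), which marks germ cells and guards methylation in the egg, was between 0.291 and 0.814 and thus near the value of 3 reads. It has near-identical copies elsewhere in the genome, so its reads may be split or lost in counting and its level is uncertain. Limma, edgeR and DESeq2 called 0 of the 6 markers between the days, with 0 at an unadjusted p under 0.05, while limma called 6.88% of all genes. Their summed value was between 165.6 and 219.9 at day 4 and between 153.3 and 168.0 at day 6, lower at day 6 within each line.

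Of the markers of other cell types, some were at 0 and others were present. At or under 3 reads in all 6 libraries were 1 of 12 endothelial, 5 of 12 blood, 4 of 12 mesenchymal and 4 of 12 trophoblast markers. The same held for 4 of 13 markers of extraembryonic endoderm, 2 of 10 of neuroectoderm and 3 of 8 of heart muscle. Emcn of endothelium, the globins Hbb-bh1, Hbb-y, Hba-x and Hba-a1 of blood, and Dcn of mesenchyme were at 0 in all 6 libraries. So were Tpbpa and Prl3d1 of trophoblast, Ttr of extraembryonic endoderm, Dcx of neurons and Actc1 of heart muscle. Of 7 endothelial, 5 mesenchymal, 7 trophoblast and 2 cardiac markers that could be tested, limma, edgeR and DESeq2 called 0, and 1 cardiac marker had an unadjusted p under 0.05. The summed endothelial markers were between 11.4 and 24.8 at day 4 and between 12.1 and 14.6 at day 6. Those of mesenchyme were between 12.5 and 18.05 at day 4 and between 13.5 and 21.98 at day 6, and those of heart muscle between 3.93 and 5.67 over both days. The summed trophoblast markers were between 51.6 and 74.5 at day 4 and between 43.1 and 57.1 at day 6, lower at day 6 within each line. The summed blood markers were between 7.65 and 8.58 at day 4 and between 8.74 and 13.4 at day 6. Of 4 tested, 1 was called (25%, beside 6.88% of all genes), the transcription factor Tal1, which rose (1.35 ± 0.30, adjusted p = 0.0045). That call was lost without the day 6 library of clone 1 (adjusted p = 0.079). It was also lost without clone 1 and without clone 2 as a line (adjusted p = 0.094 at most). The summed neuroectoderm markers were between 212.6 and 255.5 at day 4 and between 286.7 and 327.1 at day 6. Of 6 tested, 2 were called higher and 2 lower, which is 66.7% beside 6.88% of all genes. Sox1, a neural plate factor, rose (1.01 ± 0.27, adjusted p = 0.019), as did the neuronal tubulin Tubb3 (0.87 ± 0.12, adjusted p = 3.2e-05). Nes, an intermediate filament of neural progenitors, and the neuronal factor Neurod1 fell (-0.40 ± 0.11 and -0.77 ± 0.21). The call of Sox1 was lost without the line block (adjusted p = 0.14) and without any 1 of the day 4 libraries of the empty vector and clone 2 and the day 6 libraries of clone 1 and clone 2 (adjusted p up to 0.16). That of Nes was lost without the line block (adjusted p = 0.26) and without any 1 of the day 4 library of the empty vector and the day 6 libraries of the empty vector, clone 1 and clone 2 (adjusted p up to 0.34), and that of Neurod1 without any 1 clone library of the 2 days (adjusted p up to 0.15). The summed extraembryonic endoderm markers were between 667.1 and 701 at day 4 and between 474.9 and 516.4 at day 6. Most of that sum was Apoe, an apolipoprotein that many cell types make, which fell (-0.50 ± 0.08, adjusted p = 0.00010). Apoe was the 1 marker called of 6 tested, which is 16.7% beside 6.88% of all genes. In bulk RNA, fewer cells of a type and less RNA per cell cannot be told apart, and whether these markers have a part in the results was not tested.

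From day 4 to day 6, 1049 of 15255 tested genes were called at an adjusted p under 0.05 (limma with Benjamini-Hochberg adjustment), which is 6.88% of the genes. Of these, 533 genes (3.49%) were higher and 516 (3.38%) were lower at day 6. The median absolute log2 fold change of the called genes was 0.562, and 146 of them, 69 higher and 77 lower, reached an absolute log2 fold change of 1. The direction was the same in all 3 lines for 1041 of the 1049 genes. In 932 of them the 3 libraries of one day lay all above those of the other, against 21.8% of all tested genes. Both counts follow in large part from the selection, since the test that called these genes used the same libraries. The share of all tested genes with the same direction in the 3 lines was not counted. The count of calls was 498 without the line as a block. It was 255 without clone 1, 306 without clone 2 and 1427 without the empty vector. Without the day 6 library of clone 1 it was 411 and without that of clone 2, 483, while without the day 4 libraries of these clones it was 578 and 696. The day 4 and day 6 empty-vector libraries moved it less, to 706 and 779. For single genes, losses of a call are given without the line block or 1 library unless a line is named. Over 96 called genes picked by fixed rules, 38 lost the call without clone 1 as a line and 39 without clone 2. Many of these losses are not repeated gene by gene, and their adjusted p was often higher than without 1 library.

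The gene lists from here on were written with earlier results of these data known, so their shares called may reflect that choice and carry no test. Germ cell genes moved in a narrow set. Of 23 tested meiosis genes, 4 rose and 1 fell (21.7% called, beside 6.88% of all genes), with a median log2 fold change of 0.21, beside a median of 0.00097 over all tested genes. Of 14 germ cell RNA-binding and piRNA genes that could be tested, 1 rose, which is 7.14% beside the 6.88% of all genes, and DESeq2 called 0 of them (4 at an unadjusted p under 0.05 in limma). The list median was -0.11, but 0.0009 over members with a mean of at least 5. Of 19 specifiers and early markers, 3 (15.8%) fell and no member rose with limma and with edgeR, while DESeq2 called 0 (4 at an unadjusted p under 0.05 in limma). With a pseudocount of 0.1, with no filter on low values or with a mean of at least 5, 1 of them fell. The 5 genes that rose in the first 2 lists are Stra8, Dazl, Stag3, Smc1b and Tex14. Sequences at their annotated starts are shown because promoters are the regions where germline genes are held silent. Each window runs from 250 bases before to 30 bases after the start in GRCm38.p6 (RefSeq), in the gene's 5′ to 3′ direction. Capitals mark the letters of the E-box CACGTG and of the E2F-type site TTCCCGC, both of which PRC1.6 subunits are known to recognise. The second is read as GCGGGAA on the other strand.
Stra8, chr6:34920698-34920977 (plus strand): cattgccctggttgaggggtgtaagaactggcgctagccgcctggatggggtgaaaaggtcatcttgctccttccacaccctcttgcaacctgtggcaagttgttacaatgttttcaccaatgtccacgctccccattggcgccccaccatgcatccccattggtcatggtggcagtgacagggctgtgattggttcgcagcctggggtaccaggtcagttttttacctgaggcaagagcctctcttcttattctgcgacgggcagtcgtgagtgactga
Dazl, chr17:50293591-50293870 (minus strand): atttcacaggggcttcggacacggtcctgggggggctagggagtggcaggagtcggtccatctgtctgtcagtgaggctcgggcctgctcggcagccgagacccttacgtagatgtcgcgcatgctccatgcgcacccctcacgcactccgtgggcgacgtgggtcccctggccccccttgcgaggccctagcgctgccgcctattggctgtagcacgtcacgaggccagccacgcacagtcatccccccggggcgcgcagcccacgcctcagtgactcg
Stag3, chr5:138280259-138280538 (plus strand): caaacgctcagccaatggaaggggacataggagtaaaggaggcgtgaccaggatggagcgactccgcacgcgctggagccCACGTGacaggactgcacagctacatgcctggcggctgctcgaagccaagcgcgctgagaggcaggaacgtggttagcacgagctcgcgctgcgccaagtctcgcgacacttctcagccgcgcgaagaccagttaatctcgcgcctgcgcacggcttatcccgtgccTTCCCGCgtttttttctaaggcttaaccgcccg
Smc1b, chr15:85131928-85132207 (minus strand): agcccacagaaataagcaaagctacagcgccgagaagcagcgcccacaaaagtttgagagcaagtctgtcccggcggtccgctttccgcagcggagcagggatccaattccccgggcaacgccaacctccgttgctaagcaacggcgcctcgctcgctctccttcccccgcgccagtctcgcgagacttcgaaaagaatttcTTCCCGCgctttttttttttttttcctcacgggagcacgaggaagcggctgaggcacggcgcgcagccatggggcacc
Tex14, chr11:87404815-87405094 (plus strand): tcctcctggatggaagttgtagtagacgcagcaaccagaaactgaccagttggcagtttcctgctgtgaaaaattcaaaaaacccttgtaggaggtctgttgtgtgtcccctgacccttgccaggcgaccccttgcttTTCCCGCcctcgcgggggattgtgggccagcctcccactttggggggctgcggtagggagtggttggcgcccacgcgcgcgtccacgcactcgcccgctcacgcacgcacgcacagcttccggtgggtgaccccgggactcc

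Counted from the start site, CACGTG began at base -170 in Stag3. The E2F-type site began at base -3 in Stag3, at base -48 in Smc1b and at base -112 in Tex14, while the windows of Stra8 and Dazl held neither motif. Both motifs were searched on both strands in windows of 250 bases before to 50 bases after each start, and adjoining occurrences of both motifs can share 1 letter. CACGTG was in 10.01% of the 13261 windows of tested genes and in 34.5% of the 55 windows of the 2 germline lists. TTCCCGC or its reverse GCGGGAA was in 8.49% and 21.8% of them. The number of CG dinucleotides per window had a median of 20 over tested genes and of 19 over the germline lists. It was 10 in Stra8, 28 in Dazl, 30 in Stag3, 29 in Smc1b and 20 in Tex14. These matches describe the letters only, since no binding or methylation was measured in these libraries.

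Stra8, which licenses entry into meiosis downstream of retinoic acid, was at 11.04, 8.19 and 5.04 at day 4 and 25.9, 23.4 and 27.1 at day 6. All 3 day 6 values lay above all day 4 values, and it had 0 reads in the 3 EpiLC libraries (log2 fold change 1.596 ± 0.24, adjusted p = 6.8e-05). Dazl, an RNA-binding translational regulator of germ cells, was at 16.1, 46.3 and 37.5 at day 4 and 40.5, 85.3 and 82.6 at day 6. It rose in each line (1.09 ± 0.21, adjusted p = 0.0015), but the groups overlap, and its day 4 level was lower in the empty vector than in the clones. The call was lost without the line block (adjusted p = 0.083). The meiotic cohesin subunit Stag3 was at 43.99, 44.3 and 35.7 at day 4 and 65.7, 68.8 and 74.1 at day 6 (0.74 ± 0.12, adjusted p = 0.00013). Its partner Smc1b was at 22.2, 20.2 and 20.7 at day 4 and 30.6, 33.4 and 35.97 at day 6 (0.64 ± 0.15, adjusted p = 0.0093). Both had day 6 values above every day 4 value, but the call of Smc1b was lost without any 1 of the day 4 library of clone 1 and the day 6 libraries of clone 1 and clone 2 (adjusted p up to 0.10). Leaving out either clone as a line lost the call of Smc1b as well (adjusted p up to 0.16). Tex14, which keeps the bridges between sister germ cells open, was at 33.4, 39.8 and 41.6 at day 4 and 46.7, 53.2 and 58.2 at day 6 (0.45 ± 0.12, adjusted p = 0.016). Its groups do not overlap either, and its call was lost without the line block (adjusted p = 0.081) and without any 1 of the 6 libraries (adjusted p up to 0.10).

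Other meiosis genes did not pass the test or fell. Tex15, which acts in meiotic repair and transposon silencing, fell (-0.46 ± 0.13, adjusted p = 0.036), a call that was lost without the line block (adjusted p = 0.075) and without any 1 of the day 4 libraries of the empty vector and clone 2 and the day 6 libraries of clone 1 and clone 2 (adjusted p up to 0.23). Leaving out either clone as a line lost it too (adjusted p up to 0.43). The cohesin Rec8 was at 4.60, 4.68 and 3.92 at day 4 and 2.86, 2.60 and 3.20 at day 6 and was not called (-0.47 ± 0.28). The meiotic co-regulator Meiosin, at 19.8, 9.99 and 10.99 in EpiLCs, was between 0.613 and 1.31 over the 6 libraries and was not called. Sycp1, of the synaptonemal complex, and Spo11, which makes the meiotic breaks, did not reach a mean of 1. In the RNA-binding and piRNA list, Ddx4 (Vasa), a helicase of later germ cells, was at 9.20, 8.02 and 13.1 at day 4 and 7.68, 8.95 and 9.03 at day 6 (-0.19 ± 0.21). Piwil2, a piRNA-binding protein, was at 27.1, 32.1 and 26.1 at day 4 and 24.8, 25.2 and 25.2 at day 6 (-0.17 ± 0.17). Neither was called, and 8 of the 22 listed genes did not reach a mean of 1.

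Among specifiers and early markers, the interferon-induced membrane protein Ifitm3, an early mark of germ cell precursors, was at 65.9, 138 and 158 at day 4 and 46.4, 83.2 and 83.4 at day 6. It fell in each line (-0.71 ± 0.15, adjusted p = 0.0035), while the groups overlap. The call was lost without the line block (adjusted p = 0.16) and without the day 4 library of clone 2 (adjusted p = 0.066). Leaving out either clone as a line also lost it (adjusted p up to 0.11). The X-linked homeobox gene Rhox6 was at 3.22, 3.01 and 3.92 at day 4 and 0.903, 0.488 and 0.582 at day 6 (-1.40 ± 0.31, adjusted p = 0.0043). Its neighbour Rhox9 was at 2.76, 3.68 and 3.73 at day 4 and 0.753, 1.30 and 0.874 at day 6 (-1.15 ± 0.31, adjusted p = 0.022). Both fell from low values without overlap. The call of Rhox6 was lost without the day 6 library of clone 2 (adjusted p = 0.051), and that of Rhox9 without any 1 of the day 4 libraries of clone 1 and clone 2 and the day 6 libraries of the empty vector and clone 2 (adjusted p up to 0.13). Leaving out either clone as a line lost both calls (adjusted p up to 0.097 for Rhox6 and 0.21 for Rhox9). The receptor Kit was at 119.5, 103 and 106 at day 4 and 108, 127 and 145 at day 6 and was not called. The membrane phosphatase Alpl, which germ cells of this age display, was at 130.3, 101 and 96.1 at day 4 and 109, 115 and 109 at day 6 and was not called either.

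**Figure D1:**
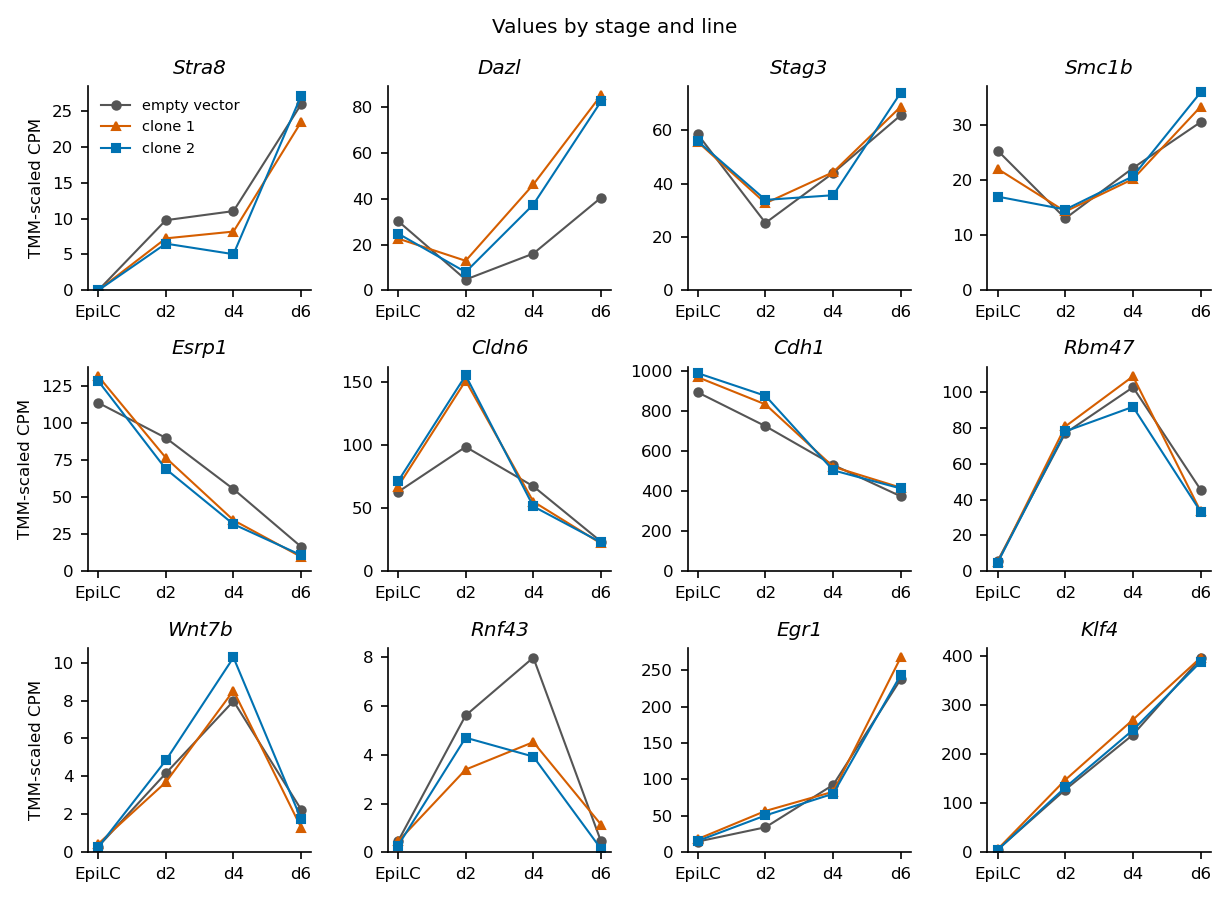
TMM-scaled CPM (vertical axis, linear from 0) of 12 genes in EpiLCs and at days 2, 4 and 6 (d2, d4, d6), with 1 point per library and 1 line per cell line. Stra8, Stag3, Smc1b, Egr1 and Klf4 have all 3 day 6 points above all day 4 points, Dazl rises within each line, and Esrp1, Cldn6, Cdh1, Rbm47, Wnt7b and Rnf43 have all day 6 points below all day 4 points.

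The largest increases were spread over different functions. They are the 12 largest among 384 genes called higher with groups that do not overlap, the same direction in each line, a mean of at least 5 over the 6 libraries and a symbol that is no predicted model. Tril, a co-receptor of Toll-like receptors, was at 1.07, 4.01 and 2.24 at day 4 and 7.38, 14.6 and 11.5 at day 6 (1.87 ± 0.30, adjusted p = 0.00013), the largest of them. The protein kinase C gene Prkca (chr11:107933387-108343928 in mm10) was at 5.98, 6.85 and 5.04 at day 4 and 20.8, 19.9 and 21.7 at day 6 (1.65 ± 0.24, adjusted p = 4.7e-05). In each line its value rose to more than 2 times that of day 4. Nfix, a transcription factor of the nuclear factor I family, was at 5.36, 2.84 and 3.73 at day 4 and 17.2, 9.44 and 14.4 at day 6 (1.55 ± 0.24, adjusted p = 7.5e-05). Egr1, the immediate early transcription factor that responds to ERK signalling, was at 92.6, 83.2 and 80.5 at day 4 and 238, 268 and 244 at day 6 (1.54 ± 0.12, adjusted p = 9.1e-10). Its day 6 values were close together and well above the spread of day 4. Hydin, which builds the central apparatus of motile cilia, was at 7.20, 7.69 and 7.28 at day 4 and 25.00, 21.3 and 20.97 at day 6 (1.48 ± 0.21, adjusted p = 3.4e-05).

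Germline-biased genes among the 12, beside Stra8, were Rhox13 and Rpl39l. Rhox13, an X-linked homeobox gene, was at 1.84, 4.01 and 3.73 at day 4 and 6.78, 9.11 and 13.3 at day 6 (1.35 ± 0.29, adjusted p = 0.0037), and its call was lost without the day 6 library of clone 2 (adjusted p = 0.055). Rpl39l, a testis-enriched copy of a ribosomal protein gene, was at 2.91, 5.85 and 6.16 at day 4 and 12.6, 10.7 and 15.4 at day 6 (1.26 ± 0.22, adjusted p = 0.00042). It had stood at 24.6, 24.2 and 21.02 in EpiLCs, so that its day 6 level was a partial return. The same held for Zscan4d, of a gene family active in cells resembling the early cleavage embryo. Zscan4d was at 120.3, 66.8 and 59.1 in EpiLCs and then at 5.67, 2.67 and 1.87 at day 4 and 12.6, 8.30 and 9.17 at day 6 (1.40 ± 0.17, adjusted p = 5.1e-06). Rex2 was at 56.3, 34.00 and 42.7 in EpiLCs and then at 13.5, 12.03 and 8.03 at day 4 and 28.3, 23.6 and 26.6 at day 6 (1.18 ± 0.17, adjusted p = 3.4e-05). Zscan4d and Rex2 belong to families of near-identical copies, so their counts are uncertain. The formin Fhod3, which assembles actin filaments (1.21 ± 0.18, adjusted p = 7.5e-05), and Clca3b, of a family of chloride channel regulators (1.26 ± 0.22, adjusted p = 0.00045), complete the 12. Nfix and Fhod3 overlap genes on the opposite strand, and the strand setting of the counting is not given in the sources used here. Of the other genes described, Tdh, Shmt2, Gapdh, Rpl18, Tagln and Eef1b2 also overlap a tested gene on the opposite strand. Tet1, Sox2, Slc2a3, Neurod1 and Rhobtb3 overlap a tested gene on the same strand.

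The 12 largest decreases, drawn in the same way from 358 genes, included 3 genes known from epithelial cells, picked after their values were seen. Esrp1, which sets epithelial splicing (chr4:11331933-11386783 in mm10), was at 55.3, 34.4 and 31.7 at day 4 and 16.6, 9.77 and 10.9 at day 6 (-1.62 ± 0.14, adjusted p = 7.9e-09). It had been at 113, 131 and 128 in EpiLCs and its values were lower at each later stage. Rbm47, an RNA-binding protein of epithelia, was at 103, 109 and 91.6 at day 4 and 45.5, 33.4 and 33.2 at day 6 (-1.42 ± 0.12, adjusted p = 7.9e-09). Its EpiLC values of 5.86, 5.07 and 4.94 were the lowest of its course. Ap1m2, the adaptor subunit that sorts proteins to the basolateral membrane of epithelial cells, was at 23.3, 19.7 and 20.5 at day 4 and 12.5, 7.16 and 5.24 at day 6 (-1.33 ± 0.22, adjusted p = 0.00019). For these 3 genes, every day 6 value lay below every day 4 value.

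The ligand gene Wnt7b was at 7.97, 8.52 and 10.3 at day 4 and 2.26, 1.30 and 1.75 at day 6 (-1.85 ± 0.26, adjusted p = 3.5e-05), the largest of the 12 decreases. The vesicle motor Kif1a was next, at 26.98, 10.2 and 8.40 at day 4 and 3.76, 3.91 and 1.89 at day 6 (-1.81 ± 0.23, adjusted p = 9.6e-06). It was higher in the empty vector than in the clones at day 4. AU015836, of no function given here, was at 13.9, 33.8 and 40.3 at day 4 and 9.79, 7.65 and 6.26 at day 6 (-1.66 ± 0.26, adjusted p = 0.00013), with a lower day 4 value in the empty vector than in the clones. Transcriptional regulators among the decreases were Zfp608, a zinc finger protein (-1.61 ± 0.22, adjusted p = 2.5e-05), and Bhlhe41, a repressor of the circadian circuit (-1.59 ± 0.22, adjusted p = 2.2e-05). Zbtb7b, known from T cell lineage choice (-1.35 ± 0.14, adjusted p = 6.2e-07), and the corepressor Hr (-1.31 ± 0.19, adjusted p = 3.5e-05) fell as well. The kinase-like gene Rps6kl1 (-1.52 ± 0.23, adjusted p = 7.5e-05) and Rnd1, a small GTPase that loosens actin fibres and adhesion (-1.33 ± 0.27, adjusted p = 0.0019), complete the list. Over the 24 genes with the largest changes, the call was kept in every alternative for 22. The exceptions were Rhox13 and Rnd1, the latter lost without clone 1 (adjusted p = 0.094).

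**Figure D2:**
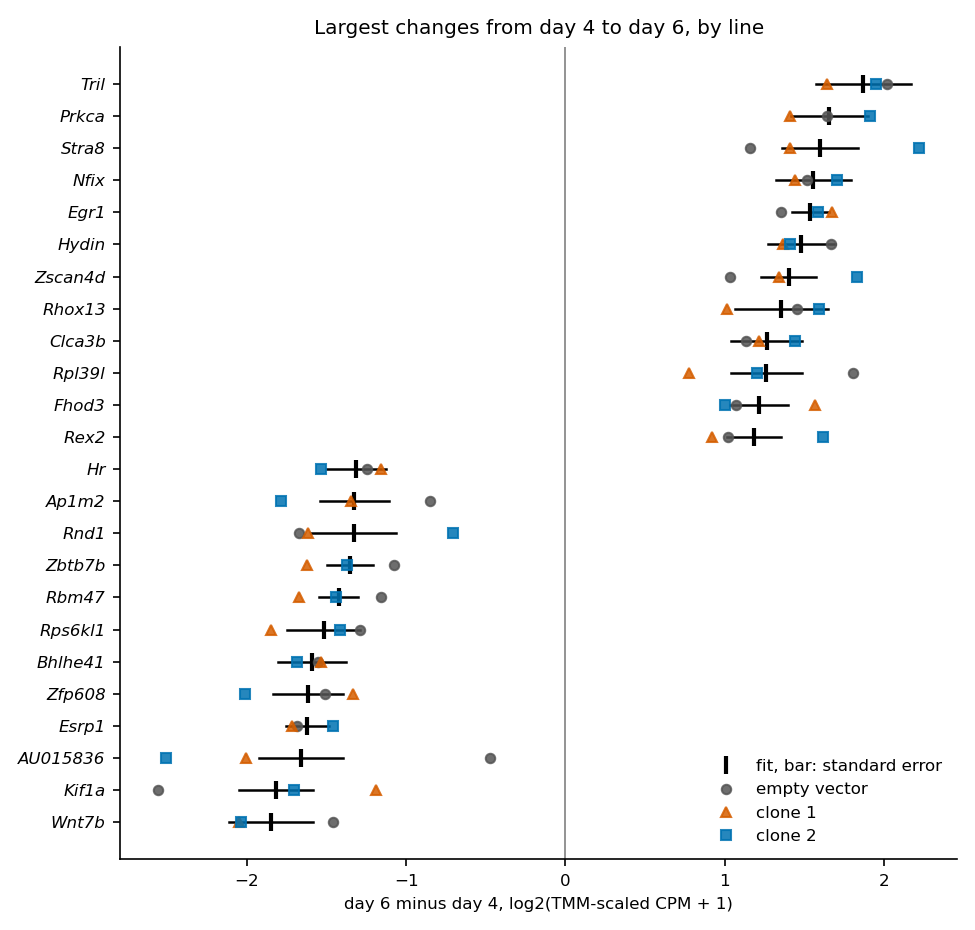
Day 6 minus day 4 difference in log2(TMM-scaled CPM + 1) of the 24 genes with the largest changes, 1 symbol per line, with a black mark for the fitted value and a bar for its standard error. All symbols lie on the same side of 0 as the fitted value, which the choice of the genes required, and the 3 symbols of AU015836 are spread widely.

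Of 22 tested members of the adhesion and cytoskeleton list, 7 fell and 2 rose, which is 40.9% called beside 6.88% of all genes. The list median was -0.17, and -0.10 over members with a mean of at least 5. With no filter on low values, 4 fell and 2 rose, and the balance of directions was not tested. The tight junction gene Cldn6 was at 67.4, 55.3 and 51.5 at day 4 and 23.6, 22.1 and 23.01 at day 6 (-1.30 ± 0.13, adjusted p = 1.6e-07). The epithelial cadherin Cdh1 was at 533, 523 and 506 at day 4 and 375, 419 and 415 at day 6 (-0.37 ± 0.07, adjusted p = 0.00098). In both, every day 6 value was below every day 4 value. The claudin Cldn7 (-0.76 ± 0.19), the laminin chain Lamb1 (-0.61 ± 0.12), the integrin Itga3 (-0.53 ± 0.11), the epithelial adhesion molecule Epcam (-0.42 ± 0.13) and the smooth muscle protein Tagln (-1.32 ± 0.30) fell as well. The members that rose were Vim, the intermediate filament of mesenchymal cells, at 145, 122 and 132 at day 4 and 244, 229 and 221 at day 6 (0.79 ± 0.13, adjusted p = 0.00026), and the fibronectin receptor chain Itga5 (0.62 ± 0.12). The call of Cldn7 was lost without the line block (adjusted p = 0.057) and without any 1 of the day 4 library of the empty vector and the day 6 libraries of clone 1 and clone 2 (adjusted p up to 0.18), and that of Tagln without any 1 of the day 4 library of clone 2 and the day 6 library of clone 1 (adjusted p up to 0.083). The call of Epcam was lost without the line block (adjusted p = 0.13) and without any 1 library except the day 6 library of the empty vector (adjusted p up to 0.36), and that of Itga3 without the line block (adjusted p = 0.084). Without clone 1 as a line the calls of Cdh1 (adjusted p = 0.065) and Itga5 (adjusted p = 0.082) were lost, and without clone 2 that of Lamb1 (adjusted p = 0.16). Among collagens, 1 of 16 tested genes rose, which is 6.25% and near the 6.88% of all genes. The list median was 0.35, between 0.16 with no filter on low values and 0.61 with a mean of at least 5. It was the basement membrane chain Col4a1 (0.90 ± 0.23, adjusted p = 0.014), which overlaps Col4a2 on the opposite strand, and its call was lost without the line block (adjusted p = 0.12) and without any 1 library except the day 4 library of clone 1 (adjusted p up to 0.098).

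Of 18 tested members of the Wnt list, 5 fell, among them 4 ligands, and 3 rose, around a list median of 0.01. That is 44.4% called, beside 6.88% of all genes. The balance depended on genes at low values. Over the 9 members with a mean of at least 5, 1 fell and 3 rose around a median of 0.24, and with no filter 3 fell and 1 rose. Beside Wnt7b, the ligand Wnt3a was at 5.06, 4.85 and 4.85 at day 4 and 1.05, 1.30 and 0.146 at day 6 (-1.75 ± 0.30, adjusted p = 0.00028), and it had 0 reads in EpiLCs. The ligand Wnt8a was at 4.90, 2.51 and 2.43 at day 4 and 1.51, 1.30 and 0.582 at day 6 (-0.99 ± 0.26, adjusted p = 0.018). Wnt3, which acts in the epiblast before germ cell specification, was at 5.82, 1.003 and 2.05 at day 4 and 1.66, 0.488 and 0 at day 6 (-1.13 ± 0.29, adjusted p = 0.017), with groups that overlap. Rnf43, the ubiquitin ligase that removes Wnt receptors from the membrane, was at 7.97, 4.51 and 3.92 at day 4 and 0.452, 1.14 and 0.146 at day 6 (-2.03 ± 0.30, adjusted p = 4.7e-05). These 5 genes were at low values, at most 10.3 in a day 4 library. The members that rose included the secreted Wnt inhibitors Notum, at 22.8, 24.7 and 24.1 at day 4 and 38.2, 39.2 and 39.9 at day 6 (0.69 ± 0.14, adjusted p = 0.0019), and Sfrp1 (0.45 ± 0.12). The nuclear effector Lef1 was at 11.04, 5.85 and 4.11 at day 4 and 23.04, 7.97 and 10.05 at day 6 (0.83 ± 0.19, adjusted p = 0.0050) and rose within each line. Axin2, a direct readout of the pathway, was at 24.7, 18.05 and 24.5 at day 4 and 18.1, 19.9 and 21.1 at day 6 and was not called (-0.17 ± 0.15).

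In this list, Wnt7b, Wnt3a, Rnf43 and Notum kept the call without the line block and without each single library, but Notum lost it without clone 1 and without clone 2 (adjusted p = 0.054 at most). The call of Wnt3 was lost without the line block (adjusted p = 0.17) and without any 1 of the day 4 libraries of the empty vector and clone 2 and the day 6 library of clone 2 (adjusted p up to 0.15). For Wnt8a it was lost without the line block (adjusted p = 0.094) and without any 1 of the day 4 libraries of the empty vector and clone 2 and the day 6 libraries of the empty vector and clone 2 (adjusted p up to 0.093). The call of Lef1 was lost without the line block (adjusted p = 0.19) and without any 1 of the day 4 library of clone 2 and the day 6 library of the empty vector (adjusted p up to 0.070), and that of Sfrp1 without the line block (adjusted p = 0.40) and without any 1 of the day 4 library of the empty vector and the day 6 libraries of clone 1 and clone 2 (adjusted p up to 0.22).

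In the bone morphogenetic protein list, 1 of 18 tested genes fell and 1 rose, with a median of -0.06. That is 11.1% called, beside 6.88% of all genes. Id2, a dominant inhibitor of bHLH factors that BMP signals induce, was at 57.9, 50.97 and 57.7 at day 4 and 29.2, 31.2 and 36.7 at day 6 (-0.76 ± 0.14, adjusted p = 0.00048). All its day 6 values lay below those of day 4. Its relative Id1, at 194, 219 and 204 at day 4 and 207, 189 and 194 at day 6, was not called (-0.06 ± 0.12). The ligand Bmp4, at 104, 102 and 113 at day 4 and 99.1, 93.6 and 77.6 at day 6, was not called either (-0.24 ± 0.13). Smad7, the inhibitory SMAD, rose (0.33 ± 0.08, adjusted p = 0.011), a call that was lost without any 1 of the day 4 library of clone 2 and the day 6 libraries of clone 1 and clone 2 (adjusted p up to 0.12). It was lost without either clone as a line too (adjusted p up to 0.19).

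Genes of the LIF, KIT and EGF pathways rose in 6 of 21 cases and fell in 2, with a list median of 0.17. That is 38.1% called, beside 6.88% of all genes. Socs3, the feedback inhibitor that STAT3 induces, was at 198, 217 and 204 at day 4 and 284, 351 and 313 at day 6 (0.61 ± 0.10, adjusted p = 0.00017). The LIF receptor Lifr was at 186, 189 and 174 at day 4 and 245, 256 and 265 at day 6 (0.48 ± 0.10, adjusted p = 0.0026), and its partner Il6st rose too (0.27 ± 0.08). Of the genes around ERK, Egr1 rose as given above, and so did the pathway inhibitors Spred2 (0.41 ± 0.08) and Spred1 (0.32 ± 0.10). The receptor kinase Erbb3 fell, at 64.5, 63.2 and 51.1 at day 4 and 37.3, 31.1 and 32.8 at day 6 (-0.80 ± 0.12, adjusted p = 3.9e-05). The phosphatase gene Dusp4 fell (-0.60 ± 0.15, adjusted p = 0.011). Fos, another early response gene, was at 23.6, 22.4 and 24.5 at day 4 and 29.8, 34.99 and 29.6 at day 6 and was not called (0.40 ± 0.23). Dusp4 was at 49.8, 19.05 and 18.9 at day 4 and 28.5, 11.6 and 14.6 at day 6, with groups that overlap, and its call was lost without the line block (adjusted p = 0.32) and without any 1 of the day 4 library of the empty vector and the day 6 library of clone 1 (adjusted p up to 0.15). The call of Il6st was lost without the line block (adjusted p = 0.098) and without any 1 library except the day 4 library of the empty vector (adjusted p up to 0.23), and that of Spred1 without the line block (adjusted p = 0.20) and without any 1 library except the day 6 library of the empty vector (adjusted p up to 0.22). Without clone 1 and without clone 2 as a line, the calls of Lifr (adjusted p = 0.089 at most) and Spred2 (adjusted p = 0.093 at most) were lost.

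Naive pluripotency genes held 3 that rose and 2 that fell among 16, with a median of 0.22. That is 31.2% called, beside 6.88% of all genes, while alternatives called between 1 and 5 higher and between 0 and 2 lower. Klf4, a naive transcription factor that LIF sustains, was at 239, 269.7 and 249 at day 4 and 394, 396 and 387 at day 6 (0.64 ± 0.09, adjusted p = 2e-05). Its values were higher at each stage from 5.86, 6.56 and 5.08 in EpiLCs. Fbxo15 (0.48 ± 0.11, adjusted p = 0.0049) and the nuclear receptor Nr0b1 (0.31 ± 0.09, adjusted p = 0.031) rose. The naive factor Tfcp2l1 (-0.28 ± 0.08, adjusted p = 0.024) and the threonine dehydrogenase Tdh (-0.33 ± 0.09, adjusted p = 0.029) fell. The call of Fbxo15, which overlaps Timm21 on the opposite strand, was lost without the day 6 library of the empty vector (adjusted p = 0.0501). The call of Nr0b1 was lost without the line block (adjusted p = 0.099) and without any 1 of the day 4 libraries of the empty vector and clone 2 and the day 6 libraries of the empty vector and clone 2 (adjusted p up to 0.27), and that of Tfcp2l1 without the line block (adjusted p = 0.11) and without any 1 library except the day 4 library of clone 2 (adjusted p up to 0.18). For Tdh it was lost without the line block (adjusted p = 0.22) and without any 1 clone library of the 2 days (adjusted p up to 0.31). Of 7 core factors, 1 (14.3%) was called, the zinc finger gene Sall1 (0.25 ± 0.07, adjusted p = 0.024), and that call was lost without the line block (adjusted p = 0.056) and without any 1 library except the day 4 library of clone 2 (adjusted p up to 0.13). Pou5f1 was at 643, 762 and 809 at day 4 and 773, 763 and 772 at day 6 and was not called (0.07 ± 0.08). Sox2 was at 852, 861 and 859 at day 4 and 815, 834 and 826 at day 6 and was not called (-0.06 ± 0.07).

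Of 16 formative epiblast genes, 5 rose at day 6 and 2 fell, with a median of 0.10. That is 43.8% called, beside 6.88% of all genes. The zinc finger gene Zic2, of neural and epiblast development, was at 104, 70.2 and 71.7 at day 4 and 184, 135 and 128 at day 6 (0.86 ± 0.10, adjusted p = 1.1e-06). Its relative Zic5 was at 42.1, 33.6 and 29.3 at day 4 and 79.8, 61.2 and 54.5 at day 6 (0.87 ± 0.12, adjusted p = 3.2e-05). Zic2 thus stood closer at day 6 to its EpiLC values of 199, 206 and 207 than at day 4. Dnmt3a and Lef1 are members of this list too. Sox4 rose (0.60 ± 0.13), while its relative Sox11 fell (-0.43 ± 0.12). Pou3f1 (Oct6), a mark of the formative epiblast, was at 14.9, 9.36 and 11.8 at day 4 and 5.72, 6.998 and 9.76 at day 6 and fell (-0.62 ± 0.15, adjusted p = 0.011). Its call was lost without the line block (adjusted p = 0.063) and without any 1 of the day 4 library of the empty vector and the day 6 library of the empty vector (adjusted p up to 0.15). The call of Sox4 was lost without any 1 of the day 4 library of clone 2 and the day 6 libraries of clone 1 and clone 2 (adjusted p up to 0.080), and that of Sox11 without the line block (adjusted p = 0.19) and without any 1 of the day 4 libraries of the empty vector and clone 1 and the day 6 libraries of the empty vector and clone 1 (adjusted p up to 0.21).

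Of the mesoderm and endoderm factors, T (Brachyury) was at 6.59, 0.836 and 1.49 at day 4 and 0.753, 0 and 0.728 at day 6 (-1.17 ± 0.35, adjusted p = 0.036). The day 4 value of T was highest in the empty vector, and its call was lost without the line block (adjusted p = 0.13) and without any 1 of the day 4 library of the empty vector and the day 6 libraries of the empty vector and clone 1 (adjusted p up to 0.35). Of 11 tested Hox genes, limma and DESeq2 called 0 and edgeR 1, with 2 at an unadjusted p under 0.05. Of all genes, limma called 6.88%.

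DNA methylation genes rose in 3 of 16 cases (18.8%, beside 3.49% of all genes) and no member fell, with a median of 0.17. Dnmt3l, the catalytically inactive partner of the de novo methyltransferases, was at 15.02, 21.6 and 24.3 at day 4 and 45.8, 39.5 and 39.8 at day 6 (1.03 ± 0.19, adjusted p = 0.00075). Leaving out 1 library moved the log2 fold change of Dnmt3l to between 0.65 and 1.265, with the call kept. Dnmt3a, a de novo enzyme, was at 136, 96.4 and 107 at day 4 and 173, 154 and 166 at day 6 (0.54 ± 0.08, adjusted p = 0.00010). The day 6 values of both remained below those of EpiLCs, which were 159, 118 and 124 for Dnmt3l and 934, 861 and 868 for Dnmt3a. Dnmt3l overlaps Aire on the opposite strand, and Aire rose as well (1.06 ± 0.20, adjusted p = 0.00072), so reads of the pair may not be told apart. The call of Aire was lost without the line block (adjusted p = 0.068). Trim28, a corepressor that guards imprints, rose (0.27 ± 0.08, adjusted p = 0.041). It overlaps Zbtb45 on the opposite strand, and its call was lost without the line block (adjusted p = 0.13) and without any 1 library except the day 4 library of clone 2 (adjusted p up to 0.25). The second de novo enzyme Dnmt3b, at 83.2, 76.7 and 72.98 at day 4 and 70.8, 69.2 and 56.2 at day 6, was not called (-0.25 ± 0.09). The maintenance enzyme Dnmt1 (0.02 ± 0.09) and the oxidase Tet1 (0.08 ± 0.08) were not called.

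Of 20 histone methylation genes, limma, edgeR and DESeq2 called 0, with 2 at an unadjusted p under 0.05, while limma called 6.88% of all genes. Their most abundant members were Jarid2, a cofactor of Polycomb repression (0.12 ± 0.07), and Setd2, a writer of a mark on transcribed genes (-0.04 ± 0.07). In the PRC1.6 list, 1 of 11 genes fell, which is 9.09% and near the 6.88% of all genes. It was the scaffold Mga, at 1006, 920.3 and 986 at day 4 and 826, 820.0 and 793 at day 6 (-0.25 ± 0.07, adjusted p = 0.021), and its call was lost without the line block (adjusted p = 0.070) and without any 1 of the day 4 library of clone 2 and the day 6 libraries of the empty vector, clone 1 and clone 2 (adjusted p up to 0.14).

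**Figure D3:**
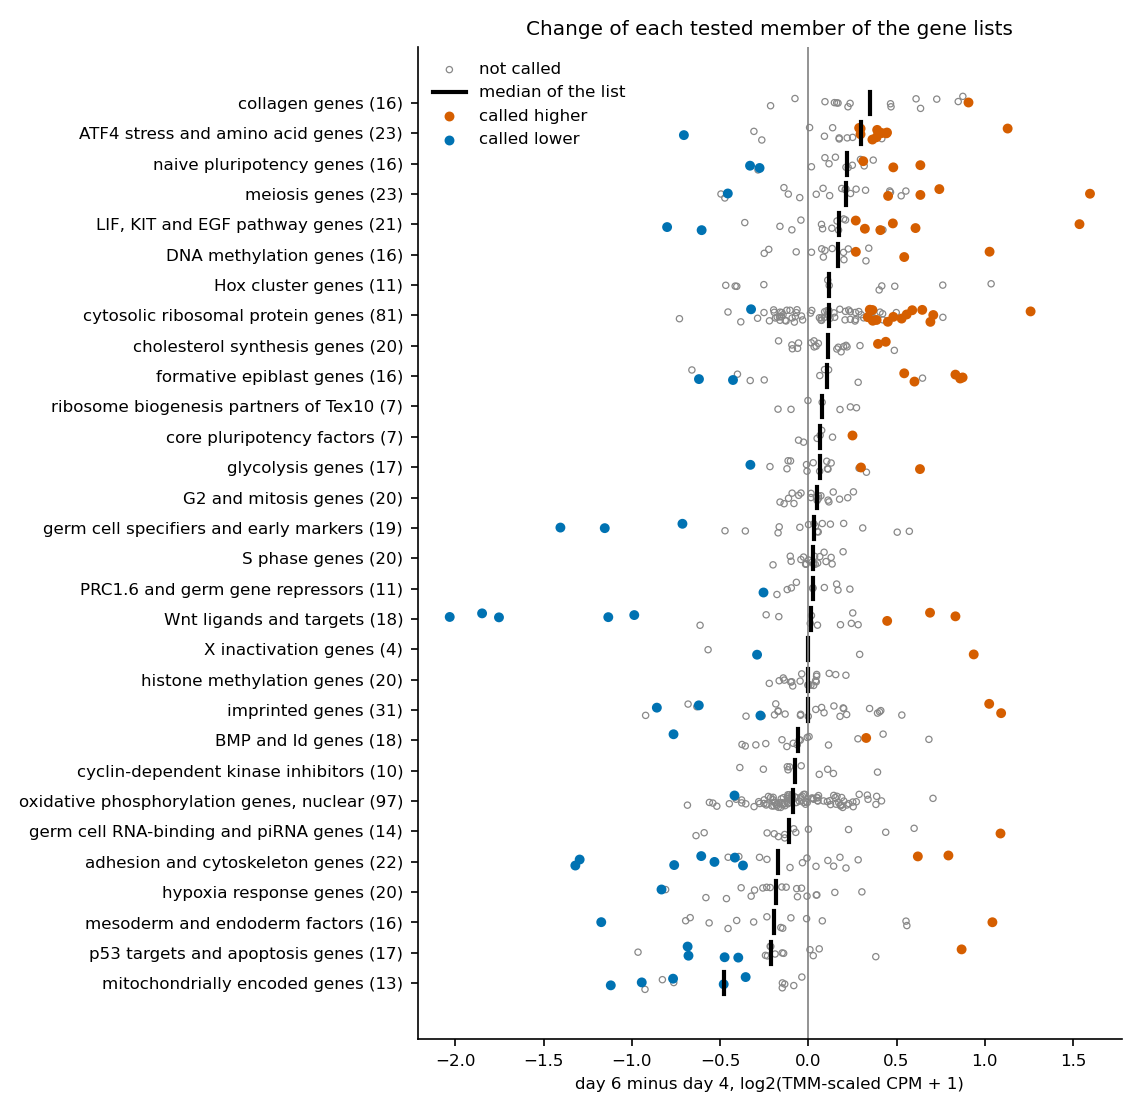
Day 6 minus day 4 difference in log2(TMM-scaled CPM + 1) of every tested member of the gene lists, with the number tested in brackets, the median of each list as a black mark and called genes filled (orange higher, blue lower). The cell cycle and histone methylation lists have no filled point, the ATF4 list has 10 filled points above 0, and the mitochondrially encoded genes lie below 0.

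The cell cycle lists held no called gene, beside 6.88% of all genes, a share that gives few calls in lists this short. Of 20 S phase genes, 20 genes of G2 and mitosis and 10 inhibitors of cyclin-dependent kinases, limma, edgeR and DESeq2 called 0, with 1, 1 and 2 at an unadjusted p under 0.05. The medians were 0.03, 0.05 and -0.07. Members of high level were Mcm3 (0.07 ± 0.08) and Mcm6 (0.09 ± 0.07) of the replicative helicase, Top2a (0.14 ± 0.07) and Mki67 (0.05 ± 0.07) of dividing cells, and Rbl1 (0.14 ± 0.13) and Cdkn1b (-0.11 ± 0.11) of the inhibitors. Mcm5 (-0.04), Cenpf (-0.09) and Cdkn1a (0.06), also members of these lists, were not called. Among p53 targets and apoptosis genes, 4 of 17 fell and 1 rose, with a median of -0.21. That is 29.4% called, beside 6.88% of all genes. The proapoptotic Bcl2l11 was at 87.2, 64.2 and 68.5 at day 4 and 55.6, 40.4 and 40.6 at day 6 (-0.68 ± 0.10, adjusted p = 3.5e-05). The membrane protein Perp was at 83.8, 88.6 and 91.8 at day 4 and 60.98, 52.9 and 49.9 at day 6 (-0.68 ± 0.12, adjusted p = 0.00056). Both were lower at day 6 in every line. The antiproliferative Btg2 (-0.47 ± 0.11) and Trp53inp1 (-0.40 ± 0.10) fell too. The call of Btg2 was lost without any 1 clone library of the 2 days (adjusted p up to 0.10), and that of Trp53inp1 without the line block (adjusted p = 0.098) and without any 1 of the day 4 libraries of the empty vector and clone 1 and the day 6 libraries of clone 1 and clone 2 (adjusted p up to 0.19). Leaving out either clone as a line lost the call of Btg2 as well (adjusted p up to 0.21). The proapoptotic Pmaip1 (Noxa) rose, at 36.2, 35.8 and 27.6 at day 4 and 71.1, 58.6 and 54.5 at day 6 (0.87 ± 0.15, adjusted p = 0.00047).

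ATF4-dependent genes, which respond to amino acid shortage and stress of the endoplasmic reticulum, rose in 10 of 23 cases and fell in 1, with a median of 0.30. That is 47.8% called, beside 6.88% of all genes. Chac1, which degrades glutathione, was at 22.2, 28.4 and 25.2 at day 4 and 33.7, 70.1 and 74.8 at day 6 (1.13 ± 0.19, adjusted p = 0.00032). Shmt2 of mitochondrial one-carbon metabolism (0.44 ± 0.09, adjusted p = 0.0024) and the pseudokinase Trib3 (0.45 ± 0.13, adjusted p = 0.038) rose. So did the amino acid transporters Slc7a5 and Slc3a2, with Asns, Mthfd2, Sesn2, Aldh18a1 and Pck2, whose log2 fold changes were between 0.29 and 0.42. The exception in direction was Ddit4, an mTOR inhibitor, at 256, 179 and 186 at day 4 and 106, 136 and 135 at day 6 (-0.70 ± 0.12, adjusted p = 0.00026). Chac1, Shmt2 and Ddit4 kept the call without the line block and without each library. Without clone 2 as a line the call of Chac1 was lost (adjusted p = 0.057), and without either clone that of Shmt2 (adjusted p = 0.09 at most). The other 8 lost it without the day 6 library of clone 1 and also without that of clone 2, with adjusted p-values up to 0.37 (Mthfd2). Without the line block 7 of the 10 that rose lost the call, with adjusted p-values between 0.061 (Slc7a5) and 0.34 (Trib3). With no filter on low values the list held 3 calls of higher genes, and with a pseudocount of 0.1 it held 6.

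Of 17 glycolysis genes, 17.6% were called, beside 6.88% of all genes. Gapdh (0.63 ± 0.10, adjusted p = 0.00017) and the lactate dehydrogenase Ldha (0.30 ± 0.09, adjusted p = 0.036) rose. The glucose transporter Slc2a3 fell, at 1859.6, 1274 and 1154 at day 4 and 1282, 1044 and 1032 at day 6 (-0.33 ± 0.08, adjusted p = 0.015). The call of Ldha was lost without the line block (adjusted p = 0.15) and without any 1 library except the day 4 library of the empty vector (adjusted p up to 0.26), and that of Slc2a3 without the line block (adjusted p = 0.24) and without any 1 library except the day 4 library of clone 2 (adjusted p up to 0.16). Without clone 1 as a line, Ldha (adjusted p = 0.36) and Slc2a3 (adjusted p = 0.19) lost the call as well. Of 20 hypoxia genes, 1 (5%, near the 6.88% of all genes) was called, Hif3a, a member of the HIF alpha family (-0.84 ± 0.14, adjusted p = 0.00022). The 20 tested cholesterol genes had a median of 0.11, and Insig1, the pathway's brake, rose (0.39 ± 0.09, adjusted p = 0.0041). The call of Insig1 was lost without any 1 of the day 4 library of clone 1 and the day 6 library of clone 1 (adjusted p up to 0.071). It was also lost without either clone as a line (adjusted p up to 0.20). Nuclear genes of oxidative phosphorylation were called in 1 of 97 cases (1.03%, beside 6.88% of all genes), Ndufb11 (-0.42 ± 0.13, adjusted p = 0.039). It overlaps Rbm10 on the opposite strand, and its call was lost without the line block (adjusted p = 0.084) and without any 1 library except the day 4 library of clone 1 (adjusted p up to 0.22).

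Transcripts of the mitochondrial genome were lower in value at day 6. All 13 tested members had a negative log2 fold change, 5 of them called (38.5%, beside 3.38% of all genes called lower), and the median was -0.48. Over the 9 members with a mean of at least 5 the median was -0.15 with 4 called, and the unfiltered list had the same median, with 2 of 21 called. The large ribosomal RNA mt-Rnr2 was at 1781, 2036 and 2081 at day 4 and 912, 1032 and 1125 at day 6 (-0.94 ± 0.07, adjusted p = 5.2e-10), with every day 6 value below every day 4 value. The complex I subunits mt-Nd6 (-0.77 ± 0.12, adjusted p = 7.5e-05) and mt-Nd2 (-0.35 ± 0.09, adjusted p = 0.019) fell. The small ribosomal RNA mt-Rnr1 (-0.48 ± 0.10, adjusted p = 0.0035) and the transfer RNA mt-Tw (-1.12 ± 0.27, adjusted p = 0.0096) fell too. In the annotation mt-Nd6 overlaps mt-Nd5 and mt-Tw overlaps mt-Nd2. Mitochondrial reads made up 5.79%, 6.59% and 6.77% of reads at day 4 and 5.22%, 5.82% and 5.94% at day 6. The share was lower at day 6 within each line, while the ranges of the days overlap, and whether RNA quality has a part in this was not tested. The call of mt-Rnr1 was lost without the line block (adjusted p = 0.21) and without the day 4 library of clone 1 (adjusted p = 0.079), and that of mt-Tw without any 1 of the day 4 library of clone 1 and the day 6 library of clone 1 (adjusted p up to 0.071). Without clone 1 as a line, mt-Rnr1 (adjusted p = 0.21) and mt-Tw (adjusted p = 0.15) lost the call as well. For mt-Nd2 it was lost without the line block (adjusted p = 0.075) and without any 1 library except the day 4 library of the empty vector (adjusted p up to 0.18).

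Of 81 cytosolic ribosomal protein genes, 14 rose and 1 fell, with a median of 0.12. That is 18.5% called, beside 6.88% of all genes, and the unfiltered fit called 8 higher and 0 lower. Beside Rpl39l, the largest changes among those that rose were those of Rps13 (0.71 ± 0.17, adjusted p = 0.0081), Rps10 (0.69 ± 0.18, adjusted p = 0.017) and Rpl18 (0.65 ± 0.14, adjusted p = 0.0044). Rps13 was at 9.96, 10.4 and 8.77 at day 4 and 16.3, 16.8 and 16.3 at day 6. Rpl32l fell (-0.32 ± 0.10), a call that was lost without the line block (adjusted p = 0.14) and without any 1 of the day 4 libraries of the empty vector and clone 2 and the day 6 libraries of clone 1 and clone 2 (adjusted p up to 0.24). These genes took only between 0.491% and 0.546% of reads in the 6 libraries. Ribosomal protein genes, like Gapdh, have many processed copies in the genome, and reads that match several copies can be split or dropped in counting, so the levels are uncertain. The call of Rps13 was lost without the day 6 library of clone 2 (adjusted p = 0.062), and that of Rpl18 without the day 6 library of clone 2 (adjusted p = 0.058). Without clone 2 as a line both calls were lost (adjusted p = 0.11 for Rps13 and 0.14 for Rpl18). The call of Rps10 was lost without the line block (adjusted p = 0.063) and without any 1 of the day 4 libraries of clone 1 and clone 2 and the day 6 libraries of the empty vector and clone 1 (adjusted p up to 0.14). Of the 7 genes of the Tex10 ribosome biogenesis complex, limma, edgeR and DESeq2 called 0, with 2 at an unadjusted p under 0.05, while limma called 6.88% of all genes. Its member Mdn1 was at 271, 306 and 309.9 at day 4 and 262, 287 and 278 at day 6.

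Imprinted genes were called in 5 of 31 cases, 2 higher and 3 lower, around a median near 0. That is 16.1%, beside 6.88% of all genes. With edgeR 1 was called higher and 2 lower, with Dlk1 and Zim1 lost (adjusted p = 0.077 and 0.053), and the unfiltered fit called 1 in each direction. Peg10, of retrotransposon origin, was at 697, 712 and 684 at day 4 and 461, 454 and 446 at day 6 (-0.62 ± 0.08, adjusted p = 1e-05). Peg12 was at 13.8, 7.85 and 6.72 at day 4 and 25.6, 15.8 and 20.97 at day 6 (1.09 ± 0.23, adjusted p = 0.0027). Its call was lost without clone 2 as a line (adjusted p = 0.12). Dlk1, a Notch ligand homologue, rose from low values that overlap (1.03 ± 0.29, adjusted p = 0.030). Zim1 (-0.86 ± 0.26) and Impact (-0.27 ± 0.07) fell. The call of Dlk1 was lost without the line block (adjusted p = 0.10) and without any 1 library except the day 4 library of the empty vector (adjusted p up to 0.19), and that of Zim1 without the line block (adjusted p = 0.19) and without any 1 of the 6 libraries (adjusted p up to 0.20). For Impact it was lost without the line block (adjusted p = 0.51) and without any 1 library except the day 4 library of clone 2 (adjusted p up to 0.17). In the X inactivation list of 4 tested genes, Tsix rose, at 15.8, 19.4 and 28.7 at day 4 and 38.4, 39.9 and 43.4 at day 6 (0.94 ± 0.16, adjusted p = 0.00033). Rlim, the ubiquitin ligase that activates Xist, fell (-0.29 ± 0.09, adjusted p = 0.039), a call that was lost without the line block (adjusted p = 0.12) and without any 1 library except the day 4 library of clone 2 (adjusted p up to 0.28). Tsix is transcribed across Xist on the opposite strand, so their reads cannot be told apart without strand.

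The earlier stages place these changes in the course of induction. Of the 533 genes called higher, 324 had their highest stage mean at day 6 and 203 (38.1%) had it in EpiLCs. Of the 516 genes called lower, 283 had their lowest mean at day 6, and 230 (44.6%) had it in EpiLCs. Their highest mean lay at day 2 in 209, at day 4 in 194 and in EpiLCs in 113 genes. For comparison, 24.2% of all tested genes had their highest and 23.5% their lowest mean at day 6, while 35.7% had their highest and 38.1% their lowest in EpiLCs. The share of risen genes with their highest mean in EpiLCs was thus near that of all genes. These shares describe the genes and carry no test, since day 4 and day 6 also chose them.

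Whether the change from day 4 to day 6 differed between the clones and the empty vector was tested as an interaction. The empty vector has 1 library per stage, and its spread is assumed to be that of the clones. The test called 24 of 15255 genes (0.157%), with 14 changes more positive and 10 more negative in the clones. With median-ratio scaling the share of more positive changes was 69.0% in place of 58.3%. Without the clone as a block 14 genes were called, and without the day 4 library of clone 2, 9 genes. Without the day 6 library of clone 2, 16 genes were called. The largest difference was that of Vldlr, a lipoprotein receptor, which was at 18.1, 6.85 and 7.47 at day 4 and 6.17, 12.4 and 15.00 at day 6 (2.25 ± 0.50 (SE), adjusted p = 0.026). Its values were higher at day 6 in both clones and lower in the empty vector. The call of this difference was lost without the clone block (adjusted p = 0.066) and without any 1 clone library of the 2 days (adjusted p up to 0.20). Prtg, a cell surface receptor of the early embryo, was at 84.5, 31.3 and 32.5 at day 4 and 31.5, 27.3 and 29.4 at day 6 (1.23 ± 0.19 (SE), adjusted p = 0.00011). It was high at day 4 in the empty vector, and near its day 6 level in the other 5 libraries.

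Grb10, an imprinted adaptor of insulin signalling, was at 246, 11.5 and 12.1 at day 4 and 188, 18.7 and 21.4 at day 6 (1.09 ± 0.21 (SE), adjusted p = 0.0037). The clones were far below the empty vector at both days and below it in EpiLCs, where the values were 204, 73.4 and 81.5. The differences of Prtg and Grb10 were kept without the block and without each clone library. Rhobtb3, an ATPase, was at 24.98, 17.4 and 14.2 at day 4 and 19.4, 29.1 and 27.8 at day 6 (1.17 ± 0.27 (SE), adjusted p = 0.029). Mtss2, of membrane and actin remodelling, was at 38.6, 27.2 and 25.8 at day 4 and 22.6, 29.8 and 32.8 at day 6 (0.98 ± 0.22 (SE), adjusted p = 0.029). Both were lower at day 6 in the empty vector and higher in the clones. The call of Rhobtb3 was lost without the clone block (adjusted p = 0.079) and without any 1 of the day 4 library of clone 2 and the day 6 library of clone 1 (adjusted p up to 0.29), and that of Mtss2 without the clone block (adjusted p = 0.085) and without any 1 of the day 4 libraries of clone 1 and clone 2 and the day 6 library of clone 2 (adjusted p up to 0.20).

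In the negative direction, Tex19.1, a germline gene that restrains transposons, was at 46.4, 95.3 and 86.05 at day 4 and 94.7, 98.6 and 103 at day 6 (-0.86 ± 0.17 (SE), adjusted p = 0.0070). It reached at day 6 in the empty vector the level that the clones had at day 4. The same course held for Dusp27, at 59.3, 118 and 141 at day 4 and 117, 154 and 137 at day 6 (-0.80 ± 0.16 (SE), adjusted p = 0.0070). Plekhg1, a guanine nucleotide exchange factor, was at 41.8, 66.01 and 61.4 at day 4 and 33.7, 28.5 and 25.8 at day 6 (-0.90 ± 0.20 (SE), adjusted p = 0.026). The translation elongation factor Eef1b2 was at 97.9, 130.2 and 132 at day 4 and 102, 81.9 and 82.3 at day 6 (-0.73 ± 0.14 (SE), adjusted p = 0.0050). The RNA-binding protein Rbm34 was at 58.4, 89.1 and 84.4 at day 4 and 83.4, 77.96 and 72.1 at day 6 (-0.71 ± 0.16 (SE), adjusted p = 0.029). Both were lower at day 6 in both clones and higher in the empty vector. The call of Tex19.1 was lost without the day 4 library of clone 1 (adjusted p = 0.11), and that of Eef1b2 without the day 4 library of clone 2 (adjusted p = 0.051). For Dusp27 it was lost without any 1 of the day 4 library of clone 2 and the day 6 library of clone 2 (adjusted p up to 0.21). The call of Plekhg1 was lost without the clone block (adjusted p = 0.066) and without any 1 of the day 4 libraries of clone 1 and clone 2 and the day 6 library of clone 2 (adjusted p up to 0.16), and that of Rbm34 without the clone block (adjusted p = 0.066) and without any 1 of the day 4 libraries of clone 1 and clone 2 and the day 6 library of clone 2 (adjusted p up to 0.15).

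In 23 of the 24 genes, the absolute gap between the clones and the empty vector was smaller at day 6 than at day 4. In most of them the gap also changed sign, so the lines crossed. It went from -1.23 to 1.03 for Vldlr, from -0.64 to 0.53 for Rhobtb3 and from 0.42 to -0.31 for Eef1b2. Others kept the sign, such as Tex19.1 (0.95 to 0.09) and Peg3 (-0.88 to -0.21). On the log2 scale the absolute gap had a median of 0.68 at day 4, against 0.21 at day 6. Over all tested genes, the gap had a standard deviation of 0.396 at day 4, against 0.348 in EpiLCs, 0.369 at day 2 and 0.35 at day 6. An absolute gap of at least 1 was present in 386 genes at day 4 and in 263 at day 6. Between clone 1 and clone 2 the values went the other way. The standard deviation of that gap was 0.332 at day 4 and 0.357 at day 6, and it reached 1 in 230 and 339 genes. With 1 empty-vector library at day 4, that library and the line cannot be told apart.

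**Figure D4:**
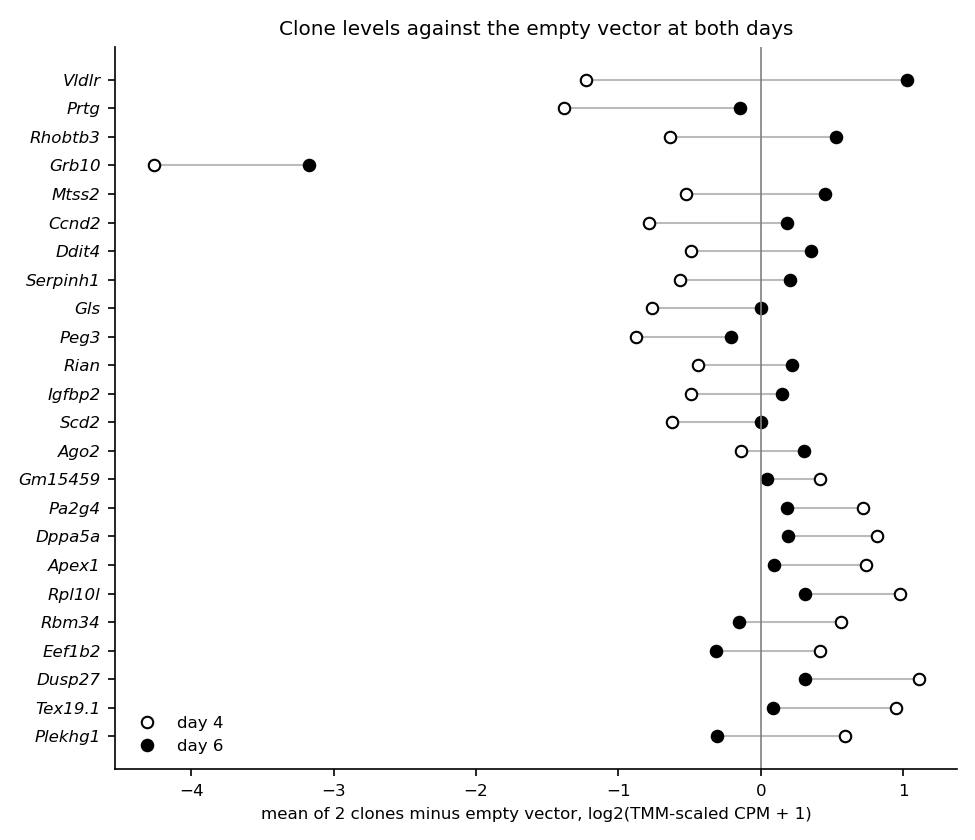
Mean of the 2 clones minus the empty vector in log2(TMM-scaled CPM + 1) for the 24 genes whose day 4 to day 6 change was called different, at day 4 (open) and day 6 (filled). The filled points lie nearer to 0 than the open ones in 23 genes, Ago2 being the exception, but often on the other side of 0. Grb10 stays far below 0 at both days.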

How the data were processed

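RNA was isolated with Trizol, and the mRNA kit used for these lines was Tecan's Universal Plus, per the labels' protocols. Bowtie2 2.3.4.3, SAMtools 1.9, HTSeq 0.11.2, edgeR 3.26.8 and mm10 are named in the submitters' processing notes, with no role or order. The deposited table holds a signal per gene and library, which its name gives as scaled by TMM. In each library, 100% of values were whole multiples of 1 step (tolerance 0.01 reads), so the values are CPM on a scaled library size. Whole reads were recovered for the count tests, of which edgeR called 1043 genes. A floor of 3 reads was worth between 0.437 and 0.56 in the 6 libraries, for counting error only.

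Genes whose mean over 12 libraries was 1 or more (15255 of 50969) were fitted with limma 3.58.1 in R 4.3.3 on log2(value + 1), with stage and line as terms, a variance trend and all 12 libraries. The interaction had stage by vector class and clone as terms. P-values were adjusted by Benjamini-Hochberg within each of the 2 comparisons. Libraries with the same line name are the same cell line per the labels, so the line is a replicate block in the main test. Deviations from the day means correlated between the days (across genes) at 0.332, 0.103 and 0.115 within the empty vector, clone 1 and clone 2, but also at 0.129 and 0.107 between the 2 clones, so they set the empty vector apart from the clones and not the clones from each other. In simulated data for day 6 minus day 4 (15255 genes), 65% of genes changed by 1 and 48% of those changed by 0.6 on the log2 scale were called, and 4.24% of calls were not changed genes. Alternatives were edgeR 4.0.16 and DESeq2 1.42.0 on recovered reads, other pseudocounts, filters and scalings, no block, no trend, an added fold threshold and leaving out lines or libraries. Leaving out clone libraries in the interaction was chosen after seeing the data.

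The members and gene lists were chosen with earlier results of these data known. Lists are described by counts and medians with no test, and 3 older symbols were matched through the RefSeq table (Ero1a, Ccn2 and Ccn1). The named genes are Tex10, the 12 largest called changes in each direction under the conditions given in the text, the called members of lists (with values for the 4 largest), the 2 most abundant members of lists with fewer than 2 calls, the 5 largest called interactions in each direction and the promoters of germline list members called higher. Other genes given with values, such as Cdh1, Notum, Lifr and members that were not called, were chosen after their values were seen. Promoters are RefSeq windows of GRCm38.p6, which matched 10400 of the tested genes by symbol. Gene positions are from GENCODE M21. Some called members of the lists are not reported here.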

Additional observations from a re-analysis of the deposited data

Results flagged for a closer look

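For 11 named genes, the change from day 4 to day 6 differed between the clones and the empty vector by the interaction test. The clones minus empty vector difference in log2 change was -0.86 for Tex19.1, -0.90 for Plekhg1, -0.80 for Dusp27, -0.73 for Eef1b2 and -0.71 for Rbm34. It was 2.25 for Vldlr, 1.23 for Prtg, 1.17 for Rhobtb3, 1.09 for Grb10, 0.98 for Mtss2 and 0.84 for Ddit4. The empty vector has 1 library per stage, and the values of these genes in each library stand with the results above. Groups of 3 libraries were too small for a test of single outlying libraries.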

How the results depend on the processing

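The count of 1049 genes called between the days was 476 with no filter on low values, 498 with no replicate block, 276 with no variance trend and 146 when a log2 change of 1 or more in size was also required. Leaving out lines or libraries gave between 255 (without clone 1) and 1427 (without the empty vector) calls. A fit of the day 4 and day 6 libraries alone called 1380 genes, 1012 of them among the 1049. Tests on recovered reads called 1043 (edgeR) and 850 (DESeq2) genes, of which 987 and 832 were among the 1049. For the interaction, with 24 genes, edgeR called 38, no filter 882, of which 844 had a mean under 1, no replicate block 14, no variance trend 0 (1076 at an unadjusted p under 0.05) and that size requirement 4, and leaving out clone libraries gave between 9 and 24. Of 96 called genes picked by the fixed rules for naming, 40 kept the call in every alternative and 0 changed direction. Called list members given in the text but outside the 96, such as Cdh1, Lifr and Slc7a5, all lost the call in some alternatives, up to 13 for Epcam and Spred1. Among the 96, the call was lost for 48 with no variance trend, for 27 with no replicate block, for 38 without clone 1 and for 39 without clone 2, and for 2 with edgeR and 16 with DESeq2. None of the 10 largest interaction calls was kept in every alternative, and none changed direction. Changes in genes at a few reads, such as the Wnt ligands and Rhox genes, may be limited by depth, which was not tested. Of these, Wnt7b and Wnt3a kept the call in every alternative.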

Other observations

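The genes described here are outside the lists and were chosen after their values were seen, so their shared directions carry no weight as a group. Among genes of epithelial identity, Cldn4, a claudin of tight junctions, was at 166, 171 and 147 at day 4 and 70.5, 73.7 and 66.1 at day 6 (log2 fold change -1.19 ± 0.10, adjusted p = 1.3e-08). Esrp2, the partner of Esrp1 in epithelial splicing, was at 11.2, 11.9 and 11.4 at day 4 and 4.67, 4.72 and 5.97 at day 6 (-1.03 ± 0.19, adjusted p = 0.00061). The transcription factor Grhl2, which maintains epithelial junctions, was at 27.4, 33.6 and 33.4 at day 4 and 20.5, 16.1 and 15.7 at day 6 (-0.82 ± 0.13, adjusted p = 0.00011). In all 3, every day 6 value lay below every day 4 value. Its relative Grhl3 fell as well (-0.82 ± 0.18, adjusted p = 0.0040), a call that was lost without any 1 of the day 4 library of the empty vector and the day 6 library of clone 2 (adjusted p up to 0.061). Without clone 2 as a line the call of Grhl3 was lost too (adjusted p = 0.13). The membrane-anchored proteases Prss8 and St14, which act in 1 cascade on epithelia, fell too (-1.57 ± 0.20, adjusted p = 1.1e-05 and -0.75 ± 0.11, adjusted p = 5.1e-05). Ovol2, a repressor of mesenchymal genes, was low, at 1.38, 3.01 and 2.43 at day 4 and 0.602, 0.977 and 0.582 at day 6 (-0.90 ± 0.28, adjusted p = 0.043). Its call was lost without the line block (adjusted p = 0.074) and without any 1 of the 6 libraries (adjusted p up to 0.21).

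Among genes with known roles in spermatogenesis, Sohlh2, a bHLH factor of spermatogonia and oocytes, was at 29.7, 44.3 and 43.5 at day 4 and 69.4, 77.5 and 80.2 at day 6 (0.95 ± 0.14, adjusted p = 6.8e-05). D1Pas1, a testis-enriched retrocopy of an RNA helicase, was at 54.4, 101 and 99.1 at day 4 and 140.2, 172 and 188 at day 6 (1.01 ± 0.12, adjusted p = 5.2e-06). It rose in all 3 lines, from a lower level in the empty vector. Psma8, the testis form of a proteasome subunit (0.81 ± 0.16, adjusted p = 0.0013), Ezhip, an inhibitor of the Polycomb methyltransferase (0.90 ± 0.21, adjusted p = 0.0073), and Usp26, an X-linked deubiquitinase (0.95 ± 0.27, adjusted p = 0.026), rose by similar amounts. The call of Usp26 was lost without the line block (adjusted p = 0.061) and without any 1 of the day 4 libraries of the empty vector and clone 1 and the day 6 libraries of clone 1 and clone 2 (adjusted p up to 0.18), and that of Ezhip without any 1 of the day 4 library of clone 1 and the day 6 library of clone 2 (adjusted p up to 0.11). Leaving out either clone as a line lost both calls too. Zscan4a and Zscan4c, copies of Zscan4d, were not called (0.53 ± 0.21 and 0.40 ± 0.28), and reads of these copies may be shared with Zscan4d.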
